A study of Mus musculus with 20 samples.

Results

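Sodium-proton exchangers of the SLC9 family and the proteins that hold and regulate them were followed in cancer-associated fibroblasts, the fibroblasts of a tumour's stroma. The 7 genes were chosen by symbol, out of 32285 genes in the table: the exchangers Slc9a5, Slc9a7, Slc9a8 and Slc9a9, the scaffolds Slc9a3r1 and Slc9a3r2, and the cofactor Chp1. All cells were an immortalized primary murine line, treated for 32 h, with 5 libraries in each of 4 groups. The first group was kept in 0.2 mM glutamine with 25 uM EIPA and the next in 0.2 mM glutamine with vehicle. The third was kept in 4 mM glutamine with 25 pg/mL IL-1a, and the last in 4 mM glutamine with vehicle. DMSO, the vehicle of EIPA, was in every group. The EIPA dose is that of the sample titles. A protocol field states the same figure in mM. Low glutamine was not combined with IL-1a, nor 4 mM glutamine with EIPA, so neither agent was measured at the other glutamine level. The labels do not say whether replicates were separate cultures, so the spread behind each p-value is that between these libraries and may be technical.

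At the plasma membrane, sodium-proton exchangers move a proton out of the cytosol in return for a sodium ion and so set its pH. On internal membranes, exchangers of the family let protons leave the lumen of the Golgi or endosome for the cytosol and so limit its acidity. EIPA, an amiloride analogue, blocks sodium-proton exchange at the plasma membrane. It is used widely against macropinocytosis, the engulfment of extracellular fluid in large vesicles, because membrane ruffling depends on the pH beneath the plasma membrane. Slc9a5 encodes NHE5, which cycles between recycling endosomes and the plasma membrane and is best known from neurons. Slc9a7 (NHE7) sits in the trans-Golgi network, Slc9a8 (NHE8) mainly in the Golgi, and Slc9a9 (NHE9) in recycling and late endosomes. Slc9a3r1 and Slc9a3r2 encode NHERF1 and NHERF2, scaffolds whose PDZ domains bind membrane proteins and whose tails bind ezrin and so the actin cortex. Chp1 encodes a calcium-binding protein that plasma membrane exchangers need as a cofactor.

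The widest difference among the 7 genes lay between glutamine levels and not between treatments: Slc9a3r1 was about 4 times lower at 0.2 mM than at 4 mM glutamine, and Slc9a3r2 was lower too. EIPA went with higher Slc9a5 and Slc9a3r2. Slc9a9, near 1 TPM, was called lower with EIPA, but that call was lost when any one of 7 of the 10 libraries was left out. No test passed for any of the 7 genes with IL-1a. Chp1 was nearly level across the 4 groups.

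The promoters of 4 of these genes are shown, because each gene had a comparison in which it was called under every scaling tried. No single comparison served for all 4. Slc9a5 was called so with EIPA, Slc9a3r1 and Slc9a9 between 0.2 and 4 mM vehicle, and Slc9a3r2 in both. Each promoter is the stretch of 250 bases before the RefSeq start, on the gene's strand and in build GRCm38.p6. Capitals mark matches to the searched motifs.
Slc9a3r1, chr11:115163091-115163340, plus strand: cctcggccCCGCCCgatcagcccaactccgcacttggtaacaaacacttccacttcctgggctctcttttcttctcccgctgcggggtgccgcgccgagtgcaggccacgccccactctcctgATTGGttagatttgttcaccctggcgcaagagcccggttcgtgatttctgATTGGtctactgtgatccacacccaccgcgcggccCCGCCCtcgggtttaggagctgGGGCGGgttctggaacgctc
Slc9a3r2, chr17:24650306-24650555, minus strand: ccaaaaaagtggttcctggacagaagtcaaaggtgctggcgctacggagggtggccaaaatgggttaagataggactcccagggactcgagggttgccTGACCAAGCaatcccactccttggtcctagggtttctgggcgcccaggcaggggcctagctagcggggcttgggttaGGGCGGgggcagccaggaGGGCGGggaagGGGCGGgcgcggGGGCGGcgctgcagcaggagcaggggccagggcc
Slc9a5, chr8:105348008-105348257, plus strand: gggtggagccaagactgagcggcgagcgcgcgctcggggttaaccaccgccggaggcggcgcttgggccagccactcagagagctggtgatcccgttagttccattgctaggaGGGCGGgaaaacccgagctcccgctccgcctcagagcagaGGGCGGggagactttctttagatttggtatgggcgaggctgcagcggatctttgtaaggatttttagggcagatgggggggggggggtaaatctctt
Slc9a9, chr9:94669642-94669891, plus strand: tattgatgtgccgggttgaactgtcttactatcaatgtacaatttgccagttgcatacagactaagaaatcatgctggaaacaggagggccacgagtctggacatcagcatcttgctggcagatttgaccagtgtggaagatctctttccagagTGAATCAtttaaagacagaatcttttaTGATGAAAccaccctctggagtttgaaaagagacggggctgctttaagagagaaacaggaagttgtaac

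The RefSeq table held a promoter for 7 of the 7 genes. Its 32851 promoters were searched on both strands for 8 motifs: GGGCGG (the GC box), the CCAAT box, the E-box with the letters CACGTG, then TGATGNAA (the core of an amino acid response element), TGACNNNGC (the core of an antioxidant response element), TCACNCCAC (a sterol element), CATTCC (a TEAD site) and TGANTCA (an AP-1 site). In the Slc9a3r1 sequence the capitals are 3 GC boxes and 2 CCAAT boxes. At least 1 GC box was found in 32.7% of all promoters and at least 1 CCAAT box in 33.8%. The Slc9a3r2 sequence holds 4 GC boxes and 1 TGACNNNGC, which 10.2% of promoters hold. The Slc9a5 sequence holds 2 GC boxes. The Slc9a9 sequence has no GC box. It holds 1 TGATGNAA, found in 3.45% of promoters, and 1 TGANTCA, found in 6.75%. Its GC content was 42.8%, against 62.8% for Slc9a3r1, 66.4% for Slc9a3r2, 62.0% for Slc9a5 and a median of 52.4% over all promoters. RefSeq lists a second start for Slc9a3r2 at position 24644957, whose window holds 1 TCACNCCAC (1.05% of promoters) and 1 TGANTCA. For Slc9a5 the RefSeq start at 105348258 lies upstream of the start of the GENCODE gene at 105348843. These matches describe letters only, and no binding was measured.

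TPM, a transcript abundance scaled to a fixed total, is the authors' deposited unit. It divides by transcript length, so levels of different genes can be set side by side, and it keeps no trace of depth, which is unknown here. Of 5 fibroblast markers, 5 averaged at least 1 TPM over the libraries. Their summed level was 388 to 584 TPM with EIPA and 1057 to 1394 TPM in 0.2 mM vehicle, and 4063 to 6667 TPM with IL-1a and 5077 to 6643 TPM in 4 mM vehicle. Col1a1 averaged 1827 TPM over the libraries and Col1a2 1169 TPM, against 138 TPM for Dcn, 22.3 TPM for Pdgfrb and 3.40 TPM for Thy1. In these bulk samples, fewer cells of a type and less RNA per cell cannot be told apart. Of 6 epithelial markers 2 averaged at least 1 TPM, namely Krt19 and Krt18, while Epcam averaged 0.103 TPM and Cldn4 0.006 TPM. Among 5 leukocyte markers only Cd68 did, at 3.64 TPM, and Adgre1 and Cd3e were at 0. Kdr was the only 1 of 4 endothelial markers, whose sum was 6.33 to 10.3 TPM in 0.2 mM vehicle and 2.90 to 4.04 TPM in 4 mM vehicle. Des was the only 1 of 4 mural markers, whose sum was 5.33 to 7.39 TPM in 0.2 mM vehicle and 8.33 to 11.8 TPM in 4 mM vehicle. No Schwann or neural marker of 6 averaged 1 TPM, with Sox10 and Rbfox3 at 0. Mitochondrially encoded mRNAs made up 5.69% ± 0.63 of TPM with EIPA and 8.87% ± 0.28 in 0.2 mM vehicle, and 10.0% ± 0.51 with IL-1a and 10.4% ± 1.2 in 4 mM vehicle (SD, n = 5 each). That share was 3.18 points lower with EIPA than with its vehicle, and it was also lower in 0.2 mM than in 4 mM vehicle (two-sided exact permutation p = 0.0079 for each, the smallest that 5 against 5 can give). IL-1a libraries 1 and 5 and 4 mM vehicle library 5 stood apart from the other 7 libraries at 4 mM on the third principal component, and results that rest on them are given without them where it matters.

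Ranked by the mean TPM over the 20 libraries, Slc9a3r1 came first at 338 TPM, above 96.8% of the 12350 genes tested, and Chp1 second at 112 TPM, above 87.2%. Slc9a3r2 at 19.9 TPM, Slc9a8 at 14.6 TPM and Slc9a5 at 6.99 TPM were of moderate level. Slc9a7 at 1.11 TPM and Slc9a9 at 0.879 TPM were lowest, above 3.88% and 1.94% of tested genes. Their ranges over the libraries overlapped, as did those of Slc9a3r2 and Slc9a8. A gene was tested if it reached 1 TPM in 5 libraries, which held for all 7. Slc9a7 reached 1 TPM in 11 libraries. Slc9a9 reached it in 8, among them the 5 of 0.2 mM vehicle, so it was tested because of the group where it is highest. With no such filter its change with EIPA had an adjusted p of 0.039 and its change with glutamine one of 2.3e-04 (limma).

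**Figure D1:**
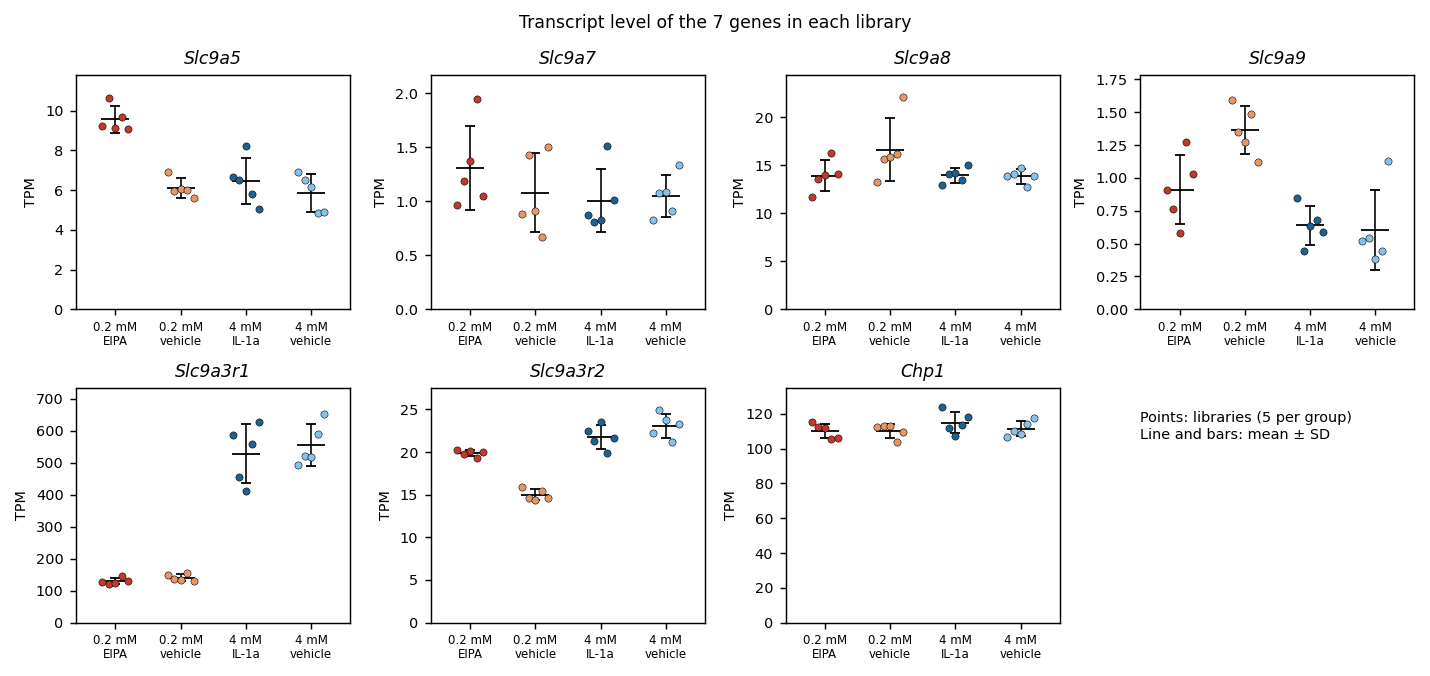
Transcript level in TPM of each of the 7 genes, with 1 point per library, grouped by glutamine level and treatment, and lines at the mean with bars of 1 SD (n = 5 libraries). The 10 libraries at 0.2 mM glutamine lie between 120.13 and 154.74 TPM for Slc9a3r1, below the 410.42 to 653.56 TPM of the 10 at 4 mM, and the 5 EIPA libraries are highest for Slc9a5.

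Slc9a3r1 (ENSMUSG00000020733, chromosome 11, 115163341 to 115181181, plus strand, mm10) encodes NHERF1. Its levels with EIPA were 128.07, 120.13, 123.84, 144.65 and 131.07 TPM, and in 0.2 mM vehicle 149.19, 135.68, 131.77, 154.74 and 129.06 TPM. With IL-1a they were 587.5, 456.56, 410.42, 558.95 and 628.66 TPM, and in 4 mM vehicle 494.06, 520.7, 519.63, 589.26 and 653.56 TPM. Every library at 0.2 mM was below every library at 4 mM, while the treated and vehicle libraries within each glutamine level overlapped. Slc9a3r1 fell by 1.98 ± 0.10 on the log2 scale in 0.2 mM vehicle against 4 mM vehicle, a ratio of mean TPM of 0.252 (limma, adjusted p = 4.7e-13). By size this change ranked 173 among the 12350 genes, and 135 among the falls. The difference between EIPA and its vehicle was -0.11 ± 0.10 (95% interval -0.32 to 0.09, limma adjusted p = 0.37). NHERF1 is abundant in epithelia, and the summed epithelial markers were 132.9 to 205.5 TPM in 0.2 mM vehicle, against 186.0 to 397.1 TPM in 4 mM vehicle. With EIPA the sum was 88.52 to 119.85 TPM, below that of its vehicle, and with IL-1a it was 166.79 to 362.45 TPM. Most of the sum was Krt19, and Epcam and Cdh1 averaged below 1 TPM. The part of such cells in the result was not tested. In the 3 libraries that stood apart, Slc9a3r1 was at 587.5, 628.66 and 653.56 TPM, against 410.42 to 589.26 TPM in the other 7 at 4 mM.

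Slc9a3r2 (ENSMUSG00000002504, chromosome 17, 24639286 to 24650327, minus strand) encodes NHERF2, the second of these scaffolds. It stood at 20.29, 19.77, 20.17, 19.27 and 19.95 TPM with EIPA and at 15.93, 14.62, 14.4, 15.47 and 14.57 TPM in 0.2 mM vehicle. It stood at 22.52, 21.35, 23.53, 19.85 and 21.59 TPM with IL-1a and at 22.26, 24.96, 23.74, 21.21 and 23.23 TPM in 4 mM vehicle. The EIPA libraries all lay above their vehicle and below the 4 mM vehicle libraries. With EIPA it rose by 0.39 ± 0.05 on the log2 scale (95% interval 0.27 to 0.50), or 1.33 times in mean TPM (limma, adjusted p = 8.2e-06, higher in 5 of 5 libraries than in any vehicle library). In 0.2 mM against 4 mM vehicle it fell by 0.59 ± 0.05, a ratio of 0.650 (limma, adjusted p = 4.9e-09). EIPA libraries against 4 mM vehicle gave -0.20 ± 0.05 (limma, adjusted p = 0.0021). These comparisons share vehicle libraries and are not independent.

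The balance of the 2 scaffolds moved with both conditions. The ratio of Slc9a3r1 to Slc9a3r2 in TPM was 6.52 ± 0.58 with EIPA and 9.33 ± 0.42 in 0.2 mM vehicle, and 24.4 ± 4.9 with IL-1a and 24.2 ± 3.5 in 4 mM vehicle (SD, n = 5 each). The EIPA libraries, from 6.08 to 7.51, did not overlap the vehicle libraries, from 8.86 to 10.003, and both lay below the 4 mM libraries, of which the lowest was at 17.4.

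Slc9a5 (ENSMUSG00000014786, chromosome 8, 105348843 to 105369881, plus strand) encodes NHE5, which cycles between recycling endosomes and the plasma membrane. Its levels were 9.21, 10.65, 9.14, 9.7 and 9.06 TPM with EIPA and 6.93, 5.94, 6.03, 5.99 and 5.59 TPM in 0.2 mM vehicle. They were 6.66, 6.53, 8.21, 5.78 and 5.07 TPM with IL-1a and 6.89, 6.49, 6.14, 4.86 and 4.87 TPM in 4 mM vehicle. The 5 EIPA libraries were above all 15 others, and those 15 overlapped. With EIPA, Slc9a5 rose by 0.57 ± 0.10 on the log2 scale against vehicle (95% interval 0.36 to 0.79), 1.57 times in mean TPM (limma, adjusted p = 1.3e-04). The vehicle groups differed by 0.06 ± 0.10 between 0.2 and 4 mM (95% interval -0.16 to 0.28, limma adjusted p = 0.62). The lower mitochondrial share in EIPA libraries scales all other TPM values up, and with mitochondrially encoded genes left out the rise was 0.53 (limma, adjusted p = 3.2e-04). The leukocyte markers also moved with EIPA, summing to 7.58 to 9.41 TPM, against 1.96 to 2.65 TPM in 0.2 mM vehicle, most of it Cd68. Over the 20 libraries Csf1r averaged 0.612 TPM and Ptprc 0.0005 TPM, and the part of such cells in the result was not tested.

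Slc9a9 (ENSMUSG00000031129, chromosome 9, 94669909 to 95230445, plus strand) encodes the endosomal NHE9. It was at 0.91, 0.76, 0.58, 1.27 and 1.03 TPM with EIPA and at 1.59, 1.35, 1.27, 1.49 and 1.12 TPM in 0.2 mM vehicle. It was at 0.85, 0.44, 0.63, 0.68 and 0.59 TPM with IL-1a and at 0.52, 0.54, 0.38, 0.44 and 1.13 TPM in 4 mM vehicle. The 0.2 mM vehicle libraries were highest, but EIPA library 4 reached their range, and 4 mM vehicle library 5 reached its lower end. Slc9a9 rose by 0.58 ± 0.12 in 0.2 mM against 4 mM vehicle, 2.27 times in mean TPM (limma, adjusted p = 2.7e-04). With EIPA it fell by 0.32 ± 0.12 (95% interval -0.57 to -0.06, limma adjusted p = 0.039). That call was lost with 0.1 TPM added in place of 1 TPM (adjusted p = 0.065) and when any one of 7 of the 10 libraries was left out, at adjusted p from 0.052 to 0.12 (limma). The gene overlaps Gm16262, an antisense gene, as well as Mir7656 and Gm47168, and the strand setting of the authors' counting is not given in the sources used here, so reads of the gene and its antisense partner cannot be told apart.

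Slc9a8 (ENSMUSG00000039463, chromosome 2, 167421712 to 167477000, plus strand), the Golgi exchanger NHE8, had the highest level of the 4 exchangers. Levels were 11.67, 13.52, 14.01, 16.24 and 14.04 TPM with EIPA and 13.29, 15.63, 15.85, 16.16 and 22.1 TPM in 0.2 mM vehicle. IL-1a libraries were at 12.95, 14.05, 14.19, 13.43 and 15.03 TPM and 4 mM vehicle libraries at 13.84, 14.03, 14.72, 12.68 and 13.83 TPM. All groups overlapped, with 0.2 mM vehicle library 5 above the rest. The difference between EIPA and vehicle was -0.23 ± 0.10 (95% interval -0.43 to -0.03) and missed the threshold (limma, adjusted p = 0.056). It passed with median-of-ratios scaling (-0.26, adjusted p = 0.026), quantile normalisation (-0.27, 0.020) or mitochondrially encoded genes left out (-0.28, 0.027), and without EIPA library 4 (-0.28, 0.024) or vehicle library 1 (-0.30, 0.014). In 0.2 mM against 4 mM vehicle Slc9a8 rose by 0.23 ± 0.10 (limma, adjusted p = 0.037). That call was lost without 0.2 mM vehicle library 5, when the change was 0.13 (limma, adjusted p = 0.14), and without library 4 of that group or library 1, 2, 4 or 5 of 4 mM vehicle, at adjusted p from 0.051 to 0.087. It was also lost under 6 other settings, with a change of 0.10 under median-of-ratios scaling (adjusted p = 0.36) and 0.12 under quantile normalisation (0.25), and with adjusted p from 0.058 to 0.064 under the other 4 (limma).

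Slc9a7 (ENSMUSG00000037341, chromosome X, 20105754 to 20291807, minus strand), the trans-Golgi exchanger NHE7, ranged from 0.97 to 1.95 TPM with EIPA, with a median of 1.19 TPM, and from 0.67 to 1.5 TPM in 0.2 mM vehicle, with a median of 0.91 TPM. It ranged from 0.81 to 1.51 TPM with IL-1a and from 0.83 to 1.34 TPM in 4 mM vehicle. All 4 groups overlapped. EIPA and vehicle differed by 0.15 ± 0.13 (95% interval -0.13 to 0.43, limma adjusted p = 0.37), and the vehicle groups by 0.01 ± 0.13 between 0.2 and 4 mM (95% interval -0.27 to 0.29, limma adjusted p = 0.97). The interval is wide at this level. The pseudogene Gm9083 lies within the gene on the other strand.

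Chp1 (ENSMUSG00000014077, chromosome 2, 119547697 to 119587027, plus strand), the exchangers' cofactor, averaged 110.2 ± 4.2 TPM with EIPA and 110.5 ± 4.0 TPM in 0.2 mM vehicle, and 115.1 ± 6.3 TPM with IL-1a and 111.6 ± 4.3 TPM in 4 mM vehicle (SD, n = 5 each). Its 20 libraries lay between 103.67 and 124.01 TPM and all groups overlapped. The difference was -0.0033 ± 0.044 with EIPA (95% interval -0.10 to 0.09), 0.04 ± 0.04 with IL-1a (-0.05 to 0.14) and -0.01 ± 0.04 between 0.2 and 4 mM vehicle (-0.11 to 0.08). Adjusted p-values were 0.96, 0.999 and 0.79 (limma). The scale matters here: the median gene differed by 0.14 between the vehicle groups, and under median-of-ratios scaling Chp1 was called lower, at -0.15 (adjusted p = 0.0033), and under quantile normalisation at -0.10 (0.031). The 3 libraries that stood apart had 124.01, 117.98 and 117.68 TPM, above the 106.95 to 114.15 TPM of the other 7 at 4 mM.

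Of the 7 genes, 3 were called with EIPA, 2 higher and 1 lower, against a background of 48.5% of all tested genes (27.4% higher and 21.1% lower). With EIPA, the groups did not overlap for Slc9a5 and Slc9a3r2, against 34.6% of tested genes. Between 0.2 and 4 mM vehicle 4 were called, 2 higher and 2 lower, where 73.3% of all genes were (45.4% higher and 27.9% lower), and the groups did not overlap for Slc9a3r1 and Slc9a3r2, where 59.9% of genes did not. Neither share of called genes is far from its background. The split of all genes into higher and lower depended on the scaling. Under median-of-ratios scaling 2902 genes were called higher and 2970 lower with EIPA. For 0.2 against 4 mM vehicle they were 4438 and 4382. The medians over all tested genes were 0.02 with EIPA and 0.14 for 0.2 against 4 mM vehicle, and relative to that median gene Slc9a3r1 was 2.11 lower on the log2 scale.

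With IL-1a, 0 of the 7 genes were called by limma, where 0.283% of all tested genes (35 genes) were, and at an unadjusted p under 0.05 there were 0 too. The groups overlapped for each of the 7 genes, against 1.38% of tested genes without overlap. The differences from vehicle lay between -0.08 for Slc9a3r1 and 0.12 for Slc9a5. For Slc9a5 the 95% interval was -0.10 to 0.33, for Slc9a3r1 -0.29 to 0.12 and for Slc9a3r2 -0.19 to 0.03.

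EIPA libraries were also set against 4 mM vehicle, a comparison in which glutamine and EIPA both differ. There 3 of the 7 genes were called, 1 higher and 2 lower, where 76.7% of all genes were (48.7% higher and 28.0% lower). Slc9a5 was higher by 0.63 ± 0.10 (limma, adjusted p = 1.2e-05), Slc9a3r1 lower at -2.09 ± 0.10 (limma, adjusted p = 1.1e-13) and Slc9a3r2 lower as given above, and for these 3 the groups did not overlap, as for 64.7% of all genes. Slc9a9 differed by 0.26 ± 0.12 (limma, adjusted p = 0.059). Its adjusted p was 0.0058 without 4 mM vehicle library 5 and 0.025 without EIPA library 3, and without the 3 libraries that stood apart its difference was 0.37 (adjusted p = 0.0050, limma). It was also called with 0.1 TPM added in place of 1 TPM (0.57, adjusted p = 0.042), without the trend (adjusted p = 0.036) and under quantile normalisation (0.38, adjusted p = 0.0040, limma). Chp1 gave -0.02 ± 0.04 (limma, adjusted p = 0.73) but was called lower under median-of-ratios scaling (-0.19, adjusted p = 3.9e-04) and quantile normalisation (-0.12, adjusted p = 0.012, limma). The response to EIPA was tested against the response to IL-1a in the same model, although each was measured at another glutamine level. Of the 7 genes 2 differed, both higher, where 28.9% of all genes did and 16.3% were higher. Slc9a3r2 differed by 0.47 ± 0.08 (limma, adjusted p = 1.4e-04) and Slc9a5 by 0.45 ± 0.15 (limma, adjusted p = 0.025). The Slc9a5 call was lost without 4 mM vehicle library 1 (0.40, adjusted p = 0.051) and under quantile normalisation (0.40, 0.076). Slc9a9 differed by -0.36 ± 0.17 (limma, adjusted p = 0.13), and by -0.47 without 4 mM vehicle library 5 (adjusted p = 0.029).

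**Figure D2:**
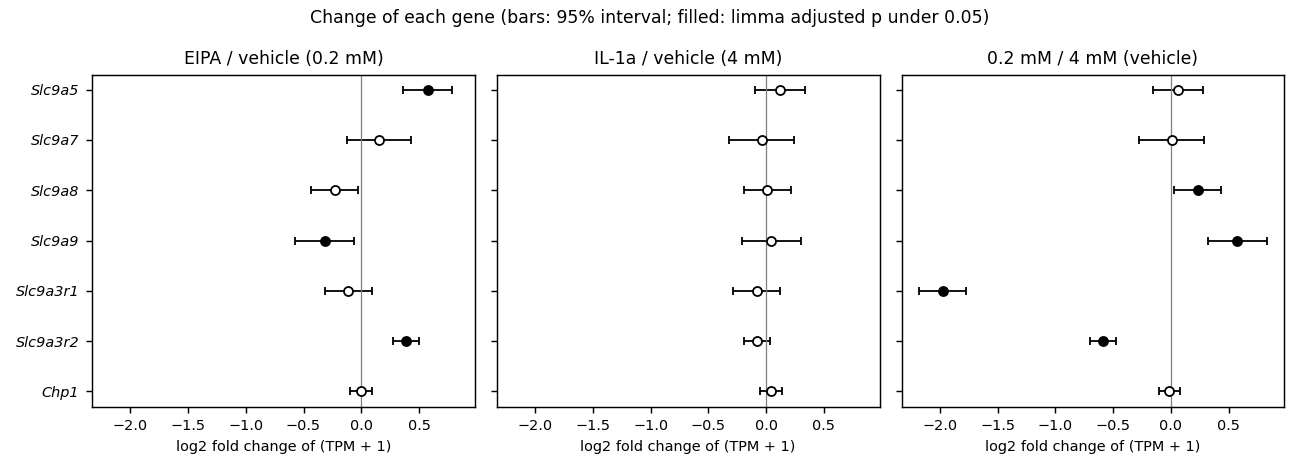
Log2 fold change of TPM + 1 for each of the 7 genes with EIPA against vehicle at 0.2 mM glutamine, with IL-1a against vehicle at 4 mM, and between 0.2 and 4 mM vehicle. Points are limma estimates from 5 libraries per group with 95% intervals, filled where the adjusted p was under 0.05. Slc9a5 and Slc9a3r2 lie to the right with EIPA, no point is filled with IL-1a, and Slc9a3r1 is far to the left at -1.98 in the glutamine comparison.

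Slc9a5 rose with EIPA, and the make-up of the 4 transcripts shifted while their sum was similar. Slc9a7 and Slc9a8 were not called with EIPA, and the Slc9a9 call depended on single libraries, as given above. The summed level was 25.7 ± 2.3 TPM with EIPA and 25.1 ± 3.0 TPM in 0.2 mM vehicle, and 22.0 ± 1.0 TPM with IL-1a and 21.3 ± 1.4 TPM in 4 mM vehicle (SD, n = 5 each). Slc9a5 was 37.4% ± 3.2 of the sum with EIPA, from 33.3% to 40.8%, and 24.6% ± 4.3 in 0.2 mM vehicle, from 18.4% to 30.5%, so the groups did not overlap. It was 29.2% ± 4.2 with IL-1a and 27.3% ± 3.2 in 4 mM vehicle. Slc9a8 was 54.1% ± 2.3 of the sum with EIPA and 65.6% ± 5.1 in 0.2 mM vehicle, again without overlap. It was 63.3% ± 3.8 with IL-1a and 64.9% ± 1.8 in 4 mM vehicle. The shares are parts of the same sum, so a higher share of Slc9a5 lowers the others. The levels of Slc9a8 itself overlapped between EIPA and vehicle. The ratio of Slc9a5 to the summed Slc9a7, Slc9a8 and Slc9a9 was 0.600 ± 0.082 with EIPA and 0.330 ± 0.076 in 0.2 mM vehicle. It was 0.416 ± 0.083 with IL-1a and 0.379 ± 0.060 in 4 mM vehicle. These shares rest on the same values as the tests above and were not tested again.

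**Figure D3:**
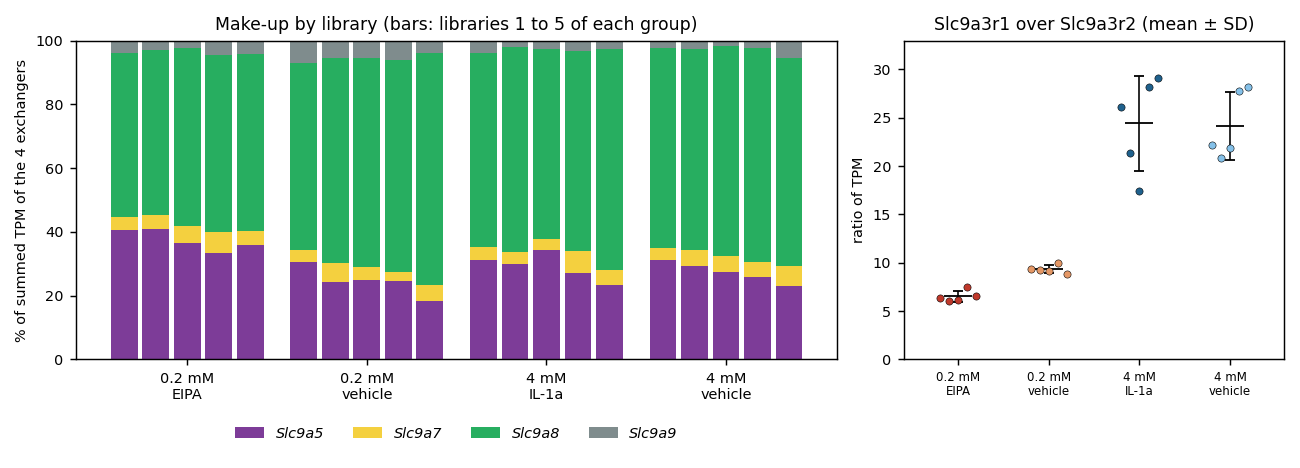
Left, the share in percent of each exchanger in the summed TPM of Slc9a5, Slc9a7, Slc9a8 and Slc9a9, with 1 bar per library in replicate order within the 4 groups; right, the ratio of Slc9a3r1 to Slc9a3r2 in TPM per library with mean and SD (n = 5). The Slc9a5 share is between 33.3% and 40.8% in the EIPA libraries and between 18.4% and 30.5% in 0.2 mM vehicle, and the scaffold ratio is at most 10.003 at 0.2 mM and at least 17.4 at 4 mM.

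Partners of these proteins were read from lists chosen by textbook role. Of the other SLC9 exchangers listed, Slc9a2, Slc9a3, Slc9a4, Slc9b1 and Slc9b2 had group means of at most 0.404 TPM, Slc9c1 was listed at 0, and 0 of the 6 were tested. Of 4 EF-hand partners 2 were tested, Calm2 and Calm3, which encode the calcium sensor calmodulin. Calm3 rose with EIPA (0.22 ± 0.05, limma adjusted p = 0.0015), while Calm2 gave -0.10 ± 0.06 and did not pass (limma, adjusted p = 0.19). Between 0.2 and 4 mM vehicle both fell, where 27.9% of all tested genes did, with changes of -0.67 for Calm2 and -1.18 for Calm3. Chp2, a relative of Chp1, was listed at 0.

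Linkers to actin came next. Of 6 linkers and related scaffolds 4 were tested, and with EIPA 0 rose and 2 fell, with a median of -0.05. The shares of all tested genes were 27.4% and 21.1%. Ezr, ezrin, which binds NHERF1 and NHERF2, fell by 0.27 ± 0.09 (limma, adjusted p = 0.014), and Rdx, radixin, fell by 0.11 ± 0.04 (limma, adjusted p = 0.048). Ezr averaged 204 TPM with EIPA and 248 TPM in 0.2 mM vehicle, and 411 TPM with IL-1a and 471 TPM in 4 mM vehicle. Between 0.2 and 4 mM vehicle it fell by 0.93 ± 0.09 (limma, adjusted p = 4.0e-09), while Rdx rose by 0.43 ± 0.04 and Msn, moesin, gave -0.07 ± 0.09 (limma, adjusted p = 0.48).

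Membrane clients of the NHERF scaffolds numbered 14, of which 10 were tested. With EIPA 6 rose and 1 fell, where 27.4% of all tested genes rose and 21.1% fell, at a median of 0.28 against 0.02 over all genes. Pdgfra, a receptor for platelet-derived growth factor, rose by 1.14 ± 0.18 with EIPA, at 14.8 TPM with EIPA and 6.15 TPM in vehicle (limma, adjusted p = 2.8e-05). Ctnnb1, β-catenin, rose by 0.47 ± 0.06 and Plcb3, a phospholipase C, by 0.34 ± 0.07. In 0.2 against 4 mM vehicle 3 clients rose and 7 fell, where 45.4% of all tested genes rose and 27.9% fell, at a median of -0.79 against 0.14 over all genes. Pdgfra fell by 2.16 ± 0.18, Plcb3 by 0.86 ± 0.07 and Ctnnb1 by 0.72 ± 0.06. Pdgfrb, a related receptor that is also a fibroblast marker here, fell by 1.40 ± 0.09 in that comparison and rose by 0.39 ± 0.09 with EIPA (limma, adjusted p = 0.0019). The summed fibroblast markers, made up mainly of Col1a1 and Col1a2, were lower with EIPA and at 0.2 mM glutamine, as given above. Pdgfrb of that list went the other way with EIPA. The part of the fibroblast markers in the changes of the clients was not tested.

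Of 12 genes for kinases, kinase subunits and a GTPase that act on exchangers, 2 rose with EIPA and 0 fell, where 27.4% of all tested genes rose and 21.1% fell, at a median of -0.03. Under median-of-ratios scaling 1 rose and 3 fell, where 2902 of the 12350 tested genes rose and 2970 fell. Rps6ka1, a p90 ribosomal S6 kinase that phosphorylates an exchanger, rose by 0.69 ± 0.07, at 15.5 TPM with EIPA and 9.21 TPM in vehicle (limma, adjusted p = 4.6e-08). Sgk1, a serum-induced kinase, rose by 0.37 ± 0.14 (limma, adjusted p = 0.036), a call lost under median-of-ratios scaling (0.064), quantile normalisation (0.076) and with mitochondrially encoded genes left out (0.068). In 0.2 against 4 mM vehicle 4 rose and 6 fell, where 45.4% and 27.9% of all tested genes did, at a median of -0.07, and Rps6ka1 fell by 0.49 ± 0.07.

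Of 13 trafficking partners, all tested, 6 rose and 2 fell with EIPA, where 27.4% of all tested genes rose and 21.1% fell. Their median was 0.11. Under median-of-ratios scaling 4 rose and 2 fell with EIPA, where 2902 of the 12350 tested genes rose and 2970 fell. Under quantile normalisation 5 rose and 2 fell with EIPA, where 2856 of all tested genes rose and 3027 fell. In 0.2 against 4 mM vehicle 6 rose and 2 fell, where 45.4% of all tested genes rose and 27.9% fell, at a median of 0.14. Under quantile normalisation 3 rose and 4 fell in 0.2 against 4 mM vehicle, and under median-of-ratios scaling 4 rose and 4 fell. Of the 12350 tested genes, 4932 rose and 3988 fell under quantile normalisation, and 4438 rose and 4382 fell under median-of-ratios scaling. Ahcyl1 encodes IRBIT, which binds another exchanger of the family and bicarbonate cotransporters. It averaged 107 ± 7.3 TPM with EIPA and 178 ± 6.4 TPM in 0.2 mM vehicle, and 323 ± 22 TPM with IL-1a and 395 ± 30 TPM in 4 mM vehicle (SD, n = 5 each). It fell by 0.72 ± 0.06 with EIPA (adjusted p = 3.2e-09), fell by 1.15 ± 0.06 in 0.2 against 4 mM vehicle (5.2e-13) and fell by 0.29 ± 0.06 with IL-1a (0.025, limma). It was the only gene of these lists called with IL-1a. Scamp2, a vesicle protein that binds NHE5 and NHE7, rose by 0.43 ± 0.08 with EIPA (limma, adjusted p = 1.2e-04), and Rack1, a scaffold that binds NHE5, by 0.34 ± 0.05 (limma, adjusted p = 6.9e-06).

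Other proton transporters were read beside the exchangers. The V-ATPase pumps protons into endosomes and lysosomes, the compartments from which endosomal exchangers let them leak. Of its 24 subunit genes 18 were tested. With EIPA 10 rose and 1 fell, at a median of 0.21, where 27.4% of all tested genes rose and 21.1% fell. Under median-of-ratios scaling 7 rose and 1 fell with EIPA, where 2902 of the 12350 tested genes rose and 2970 fell. Atp6ap2 rose by 0.56 ± 0.06, Atp6v1f by 0.43 ± 0.05 and Atp6v1a by 0.37 ± 0.06. In 0.2 against 4 mM vehicle 15 rose and 2 fell, where 45.4% of all tested genes rose and 27.9% fell, at a median of 0.62 against 0.14 over all genes. Of 13 other acid extruders and carbonic anhydrases 8 were tested. With EIPA 4 rose and 2 fell, where 27.4% and 21.1% of all tested genes did, at a median of 0.20. Slc16a3, the lactate and proton exporter MCT4, rose by 1.15 ± 0.09 with EIPA, at 33.2 TPM with EIPA and 14.5 TPM in vehicle (limma, adjusted p = 3.1e-09). Both tested sodium bicarbonate cotransporters fell with EIPA: Slc4a4 by 0.88 ± 0.09, at 4.06 TPM with EIPA and 8.31 TPM in vehicle (limma, adjusted p = 1.9e-07), and Slc4a7 by 0.71 ± 0.08, at 11.2 TPM with EIPA and 18.9 TPM in vehicle (limma, adjusted p = 2.4e-07). In 0.2 against 4 mM vehicle 1 of the 8 rose and 4 fell, where 45.4% and 27.9% of all tested genes did. Their median was -0.24. Under median-of-ratios scaling 0 of them rose and 4 fell, where 4438 of the 12350 tested genes rose and 4382 fell. Under quantile normalisation 1 rose and 3 fell, where 4932 of all tested genes rose and 3988 fell. Slc16a3 fell by 2.09 ± 0.09, while Slc4a4 gave 0.03 ± 0.09 and Slc4a7 gave 0.06 ± 0.08, which did not pass and were negative under median-of-ratios scaling.

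**Figure D4:**
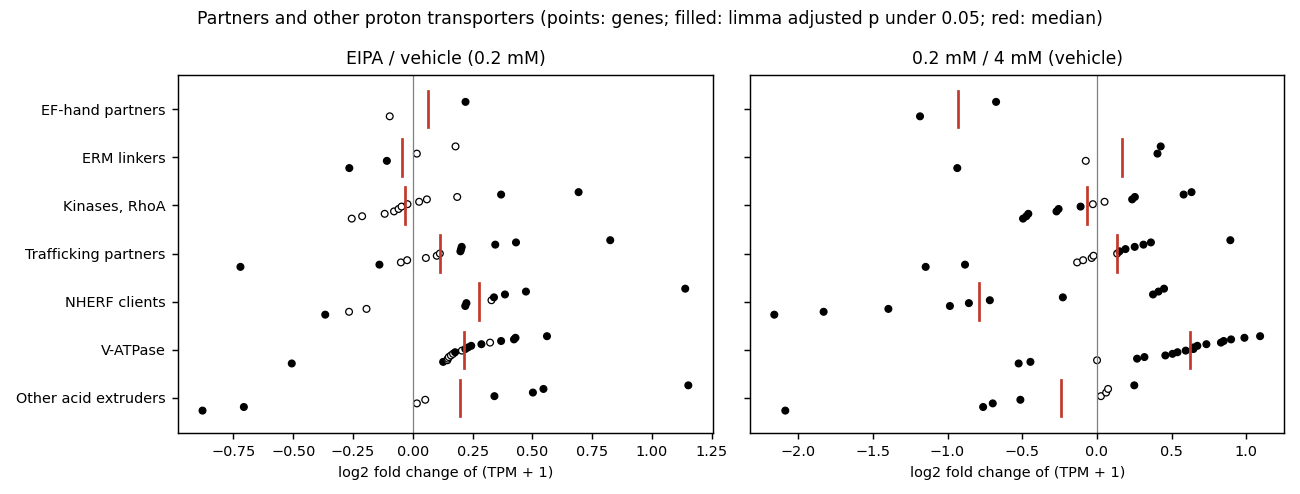
Log2 fold change of TPM + 1 for each tested gene of 7 lists of partners and other proton transporters, with EIPA against vehicle at 0.2 mM glutamine on the left and 0.2 against 4 mM vehicle on the right. Points are genes (limma, 5 libraries per group), filled where the adjusted p was under 0.05, and red lines are medians of each list. V-ATPase subunits lie mostly to the right in both panels, with medians of 0.21 and 0.62, and NHERF clients to the left in the glutamine comparison, with a median of -0.79.

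Genes whose levels followed each of the 7 were found as the 2 with the highest Pearson r of log2(TPM + 1) over the 20 libraries, among genes that averaged at least 5 TPM. The libraries share 4 conditions, and the 2 glutamine levels form clusters, so these values are descriptions. Slc9a3r1 was followed by Copb2, a coat protein of Golgi vesicles (r = 0.995), and by Lxn, a carboxypeptidase inhibitor (r = 0.994). Copb2 averaged 90.9 TPM with EIPA, 92.5 TPM in 0.2 mM vehicle, 187 TPM with IL-1a and 185 TPM in 4 mM vehicle. Slc9a5 was followed by Slco4a1, an organic anion transporter (r = 0.946), which averaged 18.2 TPM with EIPA, 1.39 TPM in 0.2 mM vehicle, 2.32 TPM with IL-1a and 2.03 TPM in 4 mM vehicle. Its second was Esd, an esterase (r = 0.936). Slc9a3r2 was followed by Gstm1, a glutathione transferase (r = 0.963), and Ptgr1, a prostaglandin reductase (r = 0.958). Gstm1 averaged 62.9 TPM with EIPA, 30.0 TPM in 0.2 mM vehicle, 77.7 TPM with IL-1a and 78.6 TPM in 4 mM vehicle, an order of groups like that of Slc9a3r2. Slc9a9 was followed by Stard3nl, a late endosomal protein (r = 0.901), and 0610009B22Rik (r = 0.900). For Slc9a8 the closest were Zzef1 (r = 0.846) and Rhobtb3 (r = 0.823), and for Chp1 they were Glul, glutamine synthetase (r = 0.817), and Cotl1, an actin-binding protein (r = 0.807). Slc9a7 had no close match, the highest being Tmem248 (r = 0.660) and Brms1 (r = 0.647).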

How the data were processed

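Polyadenylated RNA of 20 libraries was sequenced from both ends, per the labels' protocols. RSEM and mm10 are named, without versions, in the submitters' processing notes, while neither an aligner nor an annotation release is given in the sources used here. The authors deposited TPM per gene for 32285 genes. Library totals ran from 999999.47 to 1000000.84 TPM, so depth is unknown and no counting interval could be given. Testing was limited to the 12350 genes that reached 1 TPM in 5 or more libraries. The log2(TPM + 1) values were fitted with limma 3.58.1 (R 4.3.3) in a single model of the 4 groups with an intensity trend. The fit was also run on simulated data with independent noise and few changed genes. That setting differs from these data, so the run does not bear on the calls given here. Benjamini-Hochberg adjustment ran over all tested genes of each comparison, with calls under 0.05. Rose, fell and changed are used of called genes. Log2 fold changes carry their SE after ±, and the added 1 TPM makes those of low genes smaller. Gene positions are from GENCODE M21 on mm10 and promoters from RefSeq. Named genes were the 7 chosen genes, up to 3 called genes per list with the smallest adjusted p for EIPA, the 2 closest genes to each of the 7, and otherwise genes picked after their values were seen, namely Calm2, Msn and Pdgfrb. The 7 genes and the lists were chosen with earlier results of these data known. Some other genes of the exchanger family and of the lists are not reported here. Alternatives were other pseudocounts, filters, scalings and fits, a replicate block, and leaving out libraries. Scaling of the lists was added after the data were seen.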

Additional observations from a re-analysis of the deposited data

Results flagged for a closer look

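Of 28 groups of 5 libraries checked across the 7 genes, 2 held a library far from the other 4, by the gap to its nearest neighbour as a part of the group's range, which exceeds Dixon's critical value of 0.71. Chance marks about 1 in 20 groups. Slc9a7 was at 1.51 TPM in IL-1a library 4, against 0.81 to 1.01 TPM in the other 4 IL-1a libraries. Slc9a9 was at 1.13 TPM in 4 mM vehicle library 5, against 0.38 to 0.54 TPM in the other 4. Both genes are near 1 TPM. Library 5 of 4 mM vehicle is also 1 of the 3 that stood apart in the series, and the causes were not tested.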

How the results depend on the processing

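The rises of Slc9a5 and Slc9a3r2 with EIPA and the glutamine differences of Slc9a3r1, Slc9a3r2 and Slc9a9 kept their direction and their call under every alternative run that gave them a value. A filter at a mean of 5 TPM left out Slc9a7 and Slc9a9. Fitted with its 2 groups alone, IL-1a changed 19 genes in place of 35. Under quantile normalisation 5 of the 7 genes were called for EIPA libraries against 4 mM vehicle, in place of 3, and 1 for the difference of responses, in place of 2. With 1 library left out, the count for the difference of responses ranged from 1 to 3, and it was 1 without 4 mM vehicle library 1. The mitochondrial share with IL-1a ranged from -0.64 to 0.11 points with 1 library left out, and was 0.11 without 4 mM vehicle library 3. The causes were not tested.

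Values that turned in direction were small and not called in the main model. With IL-1a, Slc9a7 was 0.037 without the 3 libraries that stood apart, and Slc9a8 was -0.0019 with median-of-ratios scaling and -0.0098 with quantile normalisation. Between 0.2 and 4 mM vehicle, median-of-ratios scaling gave -0.062 for Slc9a5 and -0.065 for Slc9a7, Slc9a7 was -0.0051 with a pseudocount of 0.1 TPM and -0.0061 without mitochondrially encoded genes, and Chp1 was 0.0052 without the 3 libraries. For EIPA libraries against 4 mM vehicle, Slc9a8 was -0.16 with median-of-ratios scaling, -0.15 with quantile normalisation and -0.067 without mitochondrially encoded genes, and Chp1 was 0.0019 without the 3 libraries. The difference of responses of Slc9a3r1 was 0.057 without them. With 1 library left out, Chp1 ranged from -0.026 to 0.012 with EIPA. With IL-1a, Slc9a7 ranged from -0.12 to 0.012, Slc9a8 from -0.018 to 0.035, Slc9a9 from -0.0038 to 0.15 and Slc9a3r1 from -0.15 to 0.0041. Between 0.2 and 4 mM vehicle, Slc9a7 ranged from -0.064 to 0.081 and Chp1 from -0.029 to 0.0084. For EIPA libraries against 4 mM vehicle, Slc9a8 ranged from -0.053 to 0.059 and Chp1 from -0.033 to 0.0019, and the difference of responses of Slc9a3r1 from -0.12 to 0.038.

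Libraries of the same number correlated between EIPA and vehicle at r from 0.06 to 0.32, with 4 of 5 closest to their own number. Between 0.2 and 4 mM vehicle r was 0.05 to 0.17, again with 4 of 5 closest to their own number, and with IL-1a it was -0.28 to 0.60, with 2 of 5. The labels do not say that a number marks a shared culture or day, and not every r exceeded 0.1, so the numbers were not used as pairs. With the replicate number as a block, 6305 genes were called with EIPA, 39 with IL-1a, 9230 for glutamine, 9650 for EIPA against 4 mM vehicle and 4000 for the difference of responses. The members called were 4, 0, 4, 3 and 2, and the single changed call was Slc9a8 with EIPA (-0.23, adjusted p = 0.034). Depth is unknown, so how many reads stand behind Slc9a7 and Slc9a9 cannot be given.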
